A study of Danio rerio with 48 samples.

Results

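The 35 genes described here carry out DNA replication and mitosis: the loading and parts of the replicative helicase, the polymerase and clamp machinery of the fork, the supply of deoxynucleotides, the mitotic cyclins and kinases, and the spindle, checkpoint and chromosome proteins. They were chosen by symbol, and all 35 symbols were matched in the RNA-Seq gene tables, to 37 of 34707 Ensembl identifiers, since *mcm6* and *rrm2* are each carried by 2 identifiers. The gene *birc5a* is listed under the symbol BIRC5. Expression was measured in whole zebrafish larvae at 7 days post fertilization (dpf), on the TAB-5 background, homozygous for the alleles *smn1* fh229, *gemin3* hg105, *gemin5* hg80, *gemin2* hg108, *gemin4* hg109, *gemin6* hg110 or *gemin7* hg111, or wild type. Wild types were siblings of the *smn1*, *gemin3* and *gemin5* mutants for those 3 mutants. The other 4 mutants shared 1 control, made of 3 wild-type libraries that the labels give as a sibling of *gemin4* (replicate 1), *gemin6* (replicate 2) and *gemin7* (replicate 3) mutants, so that *gemin2* mutants had no sibling library of their own. Every group held 3 libraries, 33 in all, and at 5 dpf all larvae, wild types included, had spent 2 h in 10 µM copper sulfate, which kills the hair cells of the lateral line. The bodies of larvae genotyped from a tail biopsy were pooled, as offspring of a single heterozygous pair per family. The study set the mutants with impaired hair cell regeneration (*smn1*, *gemin3* and *gemin5*) against those in which it found no such effect (*gemin2*, *gemin4*, *gemin6* and *gemin7*). The labels do not say whether the pools of a group were separate clutches, so that p-values measure only the spread between these pools, which may be technical. The *gemin3* family was sequenced with reads of 150 nt and all others with reads of 125 nt, and this difference cannot be told apart from the family.

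Cells that are about to divide first license replication origins by loading the MCM helicase, then copy their DNA in S phase, and in mitosis condense the chromosomes and pull them apart on the spindle. Most of the genes involved are transcribed in waves during the cell cycle, the replication genes around the start of S phase and the mitotic genes in G2 and M, so that their RNA is abundant in dividing cells and scarce in resting ones. In a fish larva dividing cells are found mainly in the growth zones of the eye and brain, the gut, the blood-forming tissue, the thymus and the skin. The SMN complex, to which the mutated genes belong, assembles the small nuclear ribonucleoproteins of the spliceosome. In RNA of whole larvae, fewer dividing cells and less RNA per cell cannot be told apart.

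Totals per library ranged from 30045993 to 88871247 expected counts, with a median of 36496510, and every library of the *gemin3* family was deeper than any other. Transcripts of the mutated gene averaged 28.5% to 63.1% of the control in *gemin2*, *gemin3*, *gemin5* and *gemin7* mutants without overlap of libraries, and 94.6% to 99.5% in *smn1*, *gemin4* and *gemin6* mutants, whose libraries overlapped the control. Single libraries stood apart in the level of nearly all members together. Within its own group of 3, *gemin7* mutant replicate 3 was the highest for 37 of 37 identifiers, *gemin3* wild-type replicate 2 for 36, shared wild-type replicate 3 for 33 and *smn1* wild-type replicate 2 for 31, while *gemin6* mutant replicate 3 was the lowest for 34. The summed CPM (read counts scaled to the TMM-normalized library size) of the members were 320.1, 262 and 504 in *gemin7* mutants and 346, 412 and 222 in *gemin6* mutants, against 275, 310.1 and 404 in the shared wild types (replicates 1, 2 and 3). In the *gemin3* family they were 406, 371 and 343 in mutants and 352, 535 and 338 in wild-type siblings.

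Across the 12 wild-type libraries, the members differed widely in abundance per transcript length. The sliding clamp *pcna* had the highest median, at 43.9 TPM (transcript abundance corrected for length), followed by the helicase subunit *mcm7* at 32.3 TPM. The clamp loader subunit *rfc3*, the single-strand binding protein subunit *rpa2* and the helicase subunit *mcm4* had medians of 11.6, 10.8 and 10.6 TPM, and these 3 neighbours overlapped between libraries. At the low end were the checkpoint kinase *bub1* at 0.95 TPM, the cyclin *ccnb2* at 0.41 TPM, the initiation factor *mcm10* at 0.32 TPM and the second *mcm6* identifier at 0.205 TPM. Among members, 4 had a median expected count under 30, and the lowest count in any library was 2.03, so that changes of the rarest members were measured with little precision.

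Wild types of different families were not alike in these genes. The ratio of the highest to the lowest mean CPM of the 4 wild-type groups ranged from 1.18 to 11.7 over the 37 identifiers, with a median of 2.24, and the libraries of those extreme groups did not overlap for 31. The highest group was the *gemin3* wild types for 24 identifiers. The subunit *mcm7* had the largest ratio and ran the other way, with 67.8 ± 5.03 CPM in *gemin5* wild types, 39.2 ± 6.86 in *smn1* wild types, 23.7 ± 3.77 in the shared wild types and 5.77 ± 1.01 in *gemin3* wild types (SD, n = 3 each). Each mutant is therefore compared only with its own control.

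Over the 33 libraries most members moved together. The Pearson correlation of log2 CPM with the mean of the other members was 0.918 for the proliferation marker *mki67*, 0.902 for *pola1*, a subunit of the polymerase that primes synthesis, and 0.897 for *cdk1*, the kinase that drives entry into mitosis. It was -0.0388 for *rfc3* and -0.653 for *mcm7*. After subtraction of the group means, which leaves the differences between pools of a group, *mki67* had 0.945 and *mcm7* had -0.0437. These values describe libraries that share groups and families. Among identifiers that no list used here had matched, those whose profile over the 33 libraries was most like the mean of the members, out of 20260 genes with at least 1 CPM on average, were *kif20bb* (r = 0.926), ASF1B (0.925), CDCA7 (0.924), *si:dkey-25o16.4* (0.916), KPNA2 (0.911), ASPM (0.901), SUV39H1 (0.892), *zgc:110540* (0.873), *kntc1* (0.872) and KIF4A (0.868). The symbol *kif4* stood on the list of other mitosis genes and was not matched, so that KIF4A may be a gene of that list.

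In the comparison of each mutant with its control, few members passed the adjusted threshold, and similarly few of all genes did. By edgeR's quasi-likelihood test at an adjusted p-value below 0.05, 0 of 37 identifiers were called in *smn1* mutants (0.0921% of all genes tested), 0 of 37 in *gemin3* mutants (0.978%), 0 of 36 in *gemin5* mutants (0.907%), 2 of 37 in *gemin2* mutants (5.39%; both lower, as were 3.11%), 0 of 37 in *gemin4* mutants (0.0173%), 0 of 37 in *gemin6* mutants (0%) and 0 of 37 in *gemin7* mutants (0%). DESeq2 likewise called 0 in all of these except *gemin2* mutants, where it called 3. In *gemin7* mutants several low members, *orc1*, *bub1* and *cdc20* among them, had no DESeq2 adjusted p-value and could not be called. The labels number the pools of a group but do not pair mutant with wild-type pools. Deviations of same-numbered pools from their group means were correlated in the *smn1*, *gemin3* and *gemin5* families, and edgeR with that number as a block called 1 of 37 identifiers in *smn1* mutants (1.54% of all genes), 0 of 37 in *gemin3* mutants (1.98%) and 4 of 36 in *gemin5* mutants (7.52%). At an unadjusted p-value below 0.05, edgeR had 2 of 37 in *smn1* mutants (5.93% of all genes), 1 of 37 in *gemin3* mutants (11.4%), 3 of 36 in *gemin5* mutants (11.6%), 6 of 37 in *gemin2* mutants (20.8%), 13 of 37 in *gemin4* mutants (5.68%), 2 of 37 in *gemin6* mutants (3.69%) and 0 of 37 in *gemin7* mutants (8.23%). In *gemin4* mutants all 13 were lower, as were 2.68% of all genes, but the count rested on single libraries: it was 3 without shared wild-type replicate 3 (2.79% of all genes), 4 without mutant replicate 2 (1.68%), 6 without mutant replicate 3 and 18 without shared wild-type replicate 1. With the replicate block the unadjusted count was 11 of 37 in *smn1* mutants (17.5% of all genes), 2 of 37 in *gemin3* mutants (16.9%) and 9 of 36 in *gemin5* mutants (22.3%). Single libraries moved other counts too, to 13 of 37 in *gemin5* mutants without wild-type replicate 3 (12.7% of all genes), 7 in *gemin3* mutants without wild-type replicate 2 or 3, 9 in *gemin6* mutants without mutant replicate 3 and 6 in *gemin7* mutants without shared wild-type replicate 3. No share of all genes was computed for the left-out libraries that have none here. Their counts, also those of the lists below, show only how far 1 library moved them. Members at such a p-value are described by their values, since none of those in *gemin4* mutants passed the adjusted threshold.

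**Figure D1:**
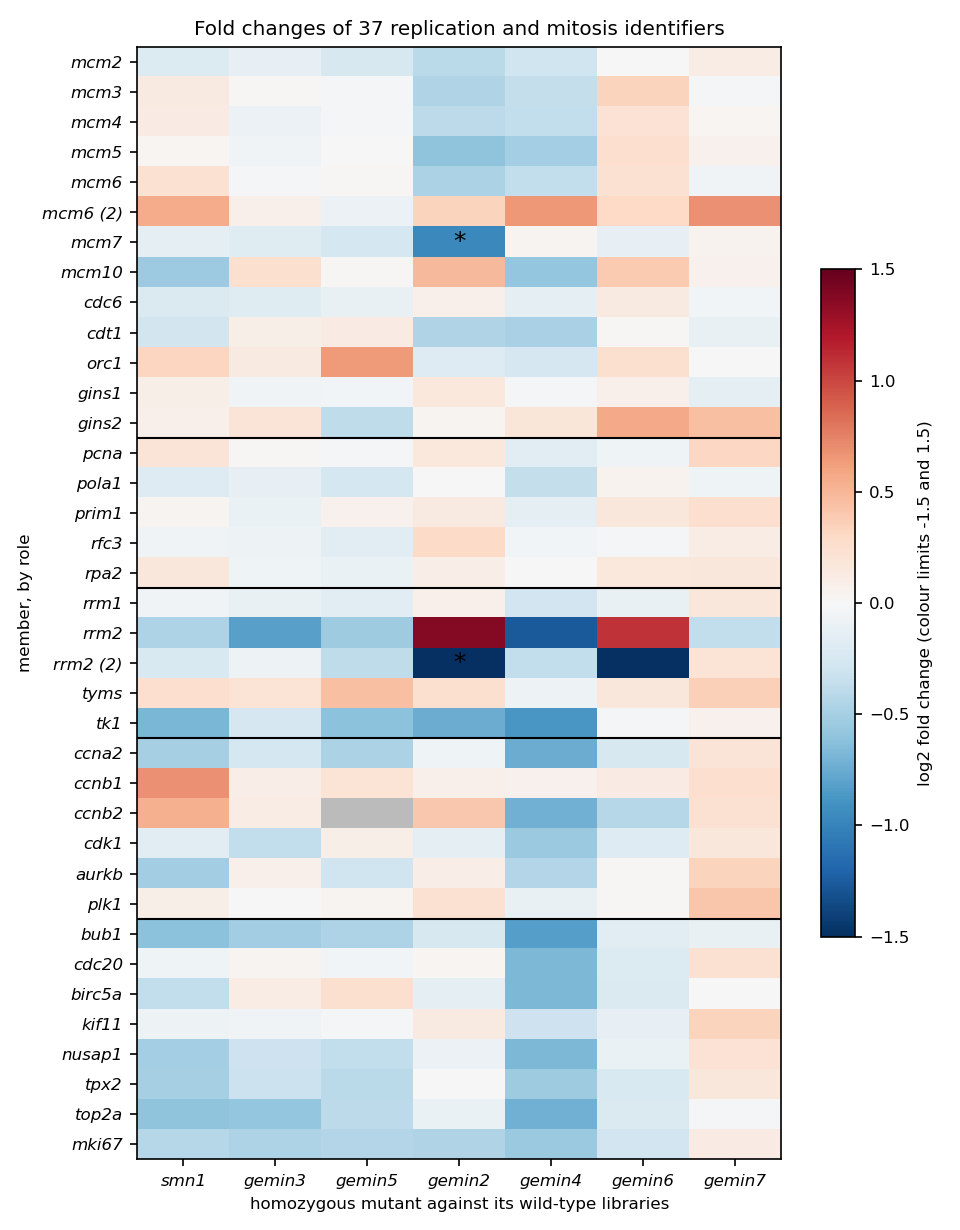
Heat map of log2 fold changes (mutant over wild type) of the 37 identifiers, in rows by role, in the 7 mutants, in columns; colour runs from blue (lower in mutants) to red (higher), the grey cell was not tested, and stars mark an edgeR adjusted p below 0.05. The 2 stars are *mcm7* and the second *rrm2* identifier in *gemin2* mutants, and the *gemin4* column is blue in 33 of 37 rows.

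The median log2 fold change of the 13 licensing and helicase identifiers was 0.07 in *smn1* mutants, -0.01 in *gemin3* mutants and -0.02 in *gemin5* mutants, beside medians of all genes of 0.01, -0.01 and 0.00. It was -0.39 in *gemin2*, -0.30 in *gemin4*, 0.23 in *gemin6* and 0.03 in *gemin7* mutants, which share 1 control. With each of the 6 libraries left out in turn, the median ranged from -0.14 to 0.26 in *smn1*, -0.12 to 0.25 in *gemin3*, -0.14 to 0.05 in *gemin5*, -0.02 to 0.50 in *gemin6* and -0.40 to 0.31 in *gemin7* mutants, so that its sign rested on single libraries in these 5. It stayed below 0 in *gemin2* mutants (-0.55 to -0.24) and in *gemin4* mutants (-0.46 to -0.14). Leaving out 1 library always kept wild types of other families in these controls. The summed CPM of these identifiers was 102 in the library labelled a *gemin4* sibling, within the range of *gemin4* mutants (115, 94 and 87.1). Shared wild-type replicates 2 and 3, of other families, had 124 and 131.

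In *gemin2* mutants *mcm7*, a subunit of the replicative helicase, fell. It had 10.3, 12.7 and 13.4 CPM in mutant replicates 1, 2 and 3, against 28, 21.2 and 21.8 in the shared wild types. Every mutant library was below every wild-type library, and the log2 fold change was -0.96 (SE 0.158, edgeR adjusted p = 0.0136). Without mutant replicate 2 it was -1.01 with an adjusted p-value of 0.0604, just outside the threshold. The gap between families in *mcm7* (above) was larger than this difference, and *gemin2* mutants had no siblings in the data, so mutation and family cannot be told apart. Of the other core subunits of this helicase, *mcm5* and *mcm6* reached an unadjusted p-value below 0.05 in *gemin2* mutants. The subunit *mcm5* had 8.19, 9.54 and 7.65 CPM in mutants and 9.22, 14.1 and 15.2 in wild types, with mutant replicate 2 just above the lowest wild type, at a log2 fold change of -0.60 (SE 0.198, edgeR adjusted p = 0.129). The main *mcm6* identifier had 12.1, 13.7 and 10.5 CPM in mutants and 13.8, 19.2 and 17.4 in wild types, with mutant replicate 2 just below the lowest wild type, with a log2 fold change of -0.47 (SE 0.158, edgeR adjusted p = 0.134). The other subunits *mcm2*, *mcm3* and *mcm4* had log2 fold changes of -0.40, -0.45 and -0.39 with overlapping libraries. Of the members whose libraries did not overlap in *gemin2* mutants, 6 of 37 were lower (13.4% of all genes tested) and 3 were higher (13.7%).

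In *gemin5* mutants *mcm7* was also at the low side, with 58, 58.6 and 52.5 CPM in mutants and 66.7, 73.2 and 63.3 in wild-type siblings. The groups did not overlap, and the log2 fold change was -0.26 (SE 0.0811, edgeR adjusted p = 0.262). The gene *orc1*, which encodes the largest subunit of the origin recognition complex, had 4.57, 5.69 and 3.92 CPM in mutants and 3.51, 3.05 and 2.57 in wild-type siblings. All mutant libraries were above all wild-type libraries, with a log2 fold change of 0.64 (SE 0.186, edgeR adjusted p = 0.225). In the fit blocked by replicate number, the log2 fold change was -0.26 (SE 0.0558, edgeR adjusted p = 0.0238) for *mcm7* and 0.64 (SE 0.145, edgeR adjusted p = 0.0292) for *orc1*, both past the threshold. Of the members that did not overlap between groups in *gemin5* mutants, 2 were higher (*orc1* and *tyms*; 8.97% of all genes) and 2 lower (*mcm7* and *mki67*; 9.3%).

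**Figure D2:**
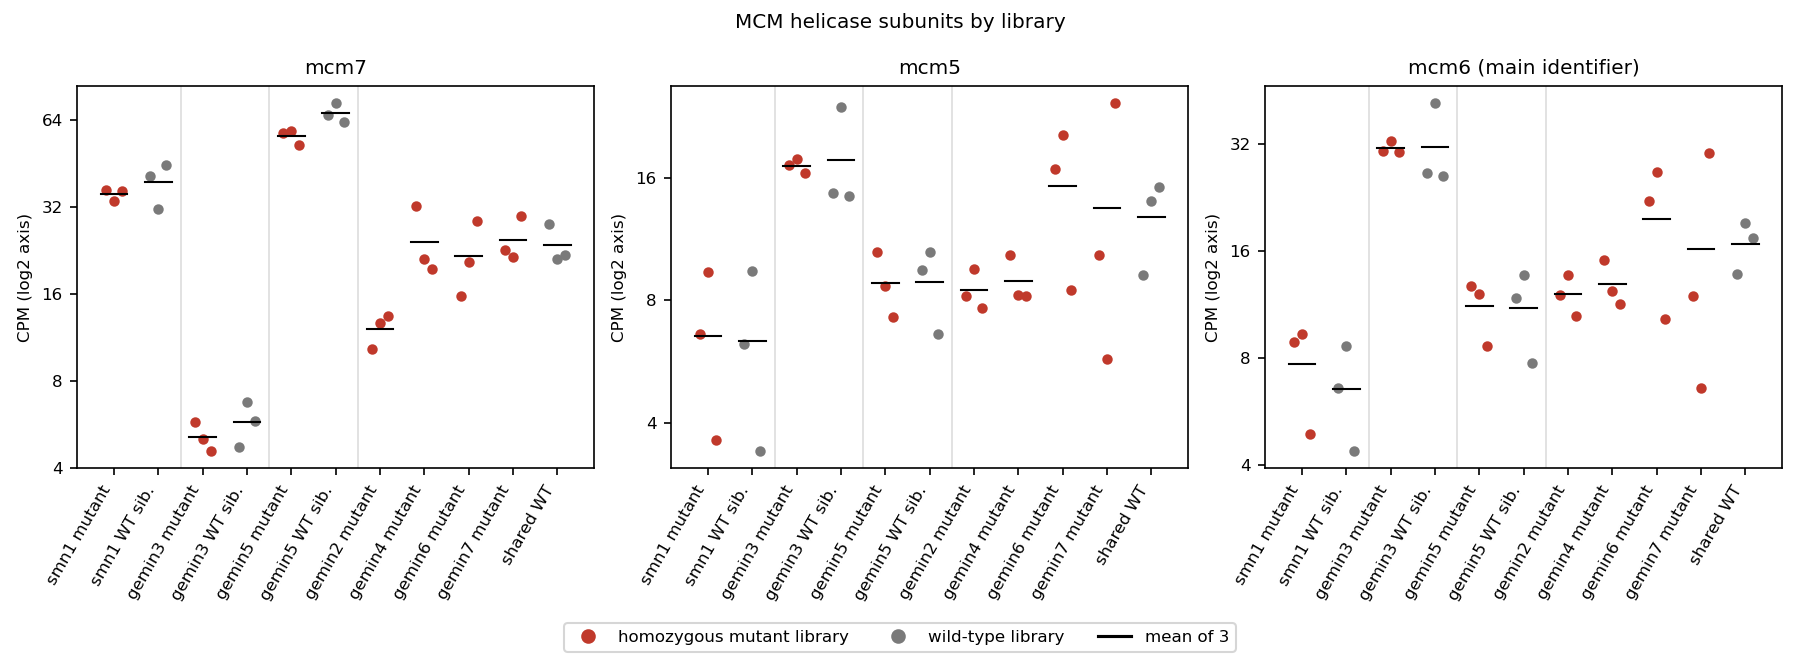
CPM (log2 axis) of *mcm7*, *mcm5* and the main *mcm6* identifier in each library, mutants in red and wild types in grey, with the mean of 3 as a bar; grey lines separate the control sets. The 3 *gemin2* mutant libraries of *mcm7* lie between 10.3 and 13.4 CPM, below the shared wild types at 21.2 to 28.0 CPM. The *gemin3* family lies lowest for *mcm7*, but its wild types have the highest wild-type mean for *mcm5* and *mcm6*.

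The other licensing genes with the smallest p-values did not pass the test. The gene *gins2*, which encodes a subunit of the GINS complex of the active helicase, had 1.56, 1.49 and 0.589 CPM in *gemin6* mutants and 0.568, 0.921 and 0.934 in the shared wild types, with mutant replicate 3 at the level of the lowest wild type, with a log2 fold change of 0.57 (SE 0.401, edgeR adjusted p = 0.991). The second *mcm6* identifier had 0.361, 0.420 and 0.805 CPM in *gemin7* mutants and 0.270, 0.267 and 0.424 in wild types, overlapping, with a log2 fold change of 0.69 (SE 0.406, edgeR adjusted p = 0.677), which was 0.25 without mutant replicate 3. In *smn1* mutants *mcm10*, which helps to start the helicase, had 0.714, 0.726 and 0.794 CPM, against 0.870, 1.04 and 1.35 in wild-type siblings. The groups did not overlap, with a log2 fold change of -0.55 (SE 0.268, edgeR adjusted p = 0.889).

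No fork or priming member was called in any mutant. Their median log2 fold changes over 5 genes were 0.05 in *smn1*, -0.07 in *gemin3*, -0.10 in *gemin5*, 0.14 in *gemin2*, -0.15 in *gemin4*, 0.05 in *gemin6* and 0.17 in *gemin7* mutants. In *gemin7* mutants *pcna* had 50.8, 47.9 and 77 CPM, against 37.4, 40.7 and 62.4 in the shared wild types. Replicate 3 was the highest in both groups and the groups overlapped, with a log2 fold change of 0.31 (SE 0.240, edgeR adjusted p = 0.742), which was 0.069 without mutant replicate 3. The primase-bound polymerase subunit *pola1* had 9.17, 8.11 and 7.7 CPM in *gemin4* mutants and 9.68, 11 and 11.5 in the shared wild types. The groups did not overlap, with a log2 fold change of -0.35 (SE 0.134, edgeR adjusted p = 0.861).

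The 2 identifiers named *rrm2*, the small subunit of ribonucleotide reductase and so part of the enzyme that makes deoxynucleotides, gave the widest differences of the set, in opposite directions. In *gemin2* mutants the second identifier (ENSDARG00000020711) fell, with 1.39, 1.01 and 2.13 CPM in mutants, against 11.8, 6.18 and 21.6 in the shared wild types, with a log2 fold change of -3.12 (SE 0.473, edgeR adjusted p = 0.00977). The first (ENSDARG00000078069) had 15.1, 18.7 and 17.5 CPM in mutants and 3.87, 11.3 and 4.6 in wild types, with a log2 fold change of 1.38 (SE 0.361, edgeR adjusted p = 0.0673). Neither overlapped between the groups. As *gemin2* mutants had no siblings in the data, mutation and family cannot be told apart. In *gemin6* mutants, against the same control, the second identifier had 1.24, 4.01 and 1.72 CPM, all below the wild types, with a log2 fold change of -2.49 (SE 0.544, edgeR adjusted p = 0.991). The first had 13.8, 18.8 and 9.22 CPM in *gemin6* mutants, with replicate 3 below the highest wild type, with a log2 fold change of 1.09 (SE 0.425, edgeR adjusted p = 0.991). That wild type, at 11.3 CPM, is replicate 2, the only control library labelled a *gemin6* sibling. It was also the wild type nearest the mutants for the second identifier, at 6.18 CPM. Both *gemin6* fold changes thus drew largely on wild types of other families. In *gemin3* mutants the first identifier had 8.58, 6.66 and 5.4 CPM, against 8.35, 20.1 and 7.54 in wild-type siblings. The groups overlapped and wild-type replicate 2 stood high, with a log2 fold change of -0.81 (SE 0.373, edgeR adjusted p = 0.469), which was -0.21 without that library.

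**Figure D3:**
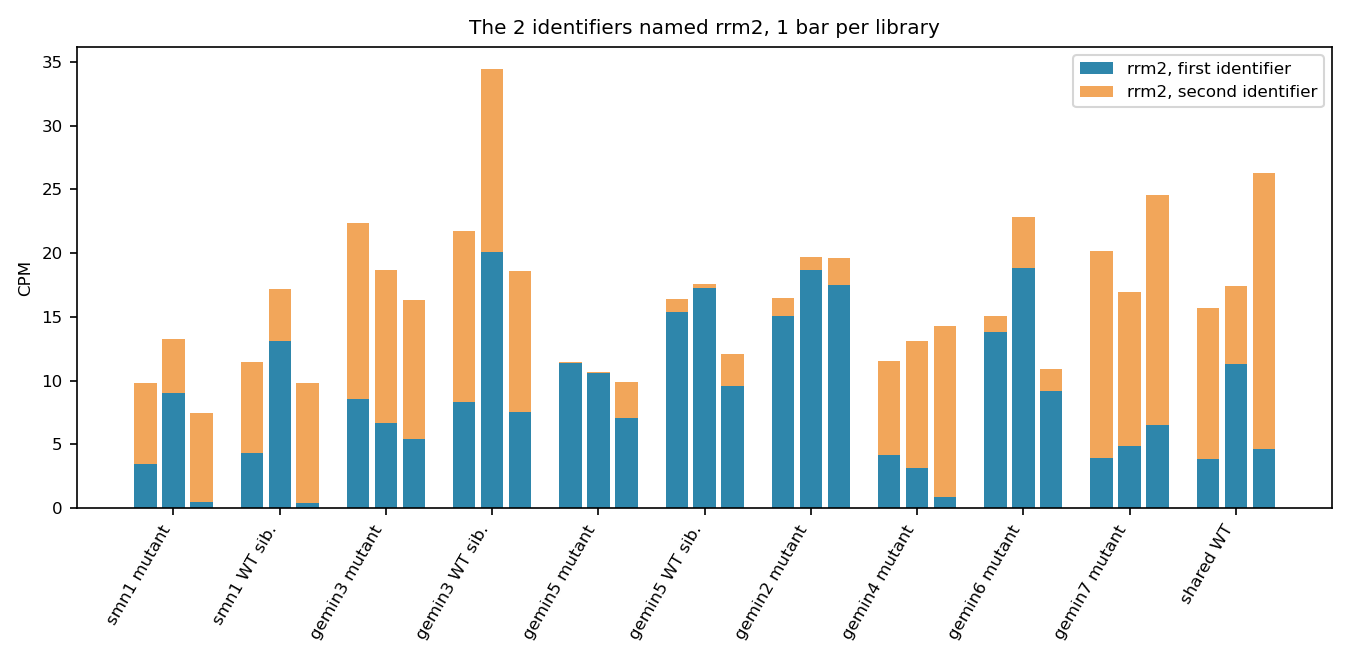
CPM of the first (blue) and second (orange) *rrm2* identifier stacked in each library, 1 bar per library in replicate order within each group. The shares of the 2 identifiers change between families and between pools of 1 family, while the sum in *gemin2* mutants (16.4 to 19.7 CPM) lies within that of the shared wild types (15.7 to 26.3 CPM).

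The sum of both identifiers, an analysis added after the data were seen, overlapped with the control in both mutants. It ranged over 16.4 to 19.7 CPM in *gemin2* mutants and 10.9 to 22.9 CPM in *gemin6* mutants, against 15.7 to 26.2 CPM in the shared wild types. Its log2 fold change was -0.09 (SE 0.196, edgeR adjusted p = 0.837) in *gemin2* mutants and -0.28 (SE 0.289, edgeR adjusted p = 0.991) in *gemin6* mutants. The share of reads between the identifiers also differed among pools of wild types, since the first had 4.29, 13.1 and 0.433 CPM and the second 7.19, 4.07 and 9.4 CPM in *smn1* wild types. The posterior SD that RSEM gives for the count had a median over libraries of 3.92% of the count for the first and 4.49% for the second, with a highest value of 597% for the second, against 0 for the members other than *rrm2* and the main *mcm6* identifier. In *gemin5* mutants the sum was 9.88 to 11.4 CPM, against 12.1 to 17.6 CPM in wild-type siblings, without overlap, with a log2 fold change of -0.52 (SE 0.145, edgeR adjusted p = 0.204). In that family the first identifier held most reads, with 11.4, 10.6 and 7.04 CPM in mutants and 15.4, 17.2 and 9.58 in wild types, and with the replicate number as a block it was past the threshold, with a log2 fold change of -0.52 (SE 0.0912, edgeR adjusted p = 0.0084). In *gemin4* mutants the sum was 11.5 to 14.3 CPM, all below the 15.7 to 26.2 CPM of the shared wild types, with a log2 fold change of -0.60 (SE 0.199, edgeR adjusted p = 0.809).

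The other members of nucleotide supply are the large subunit *rrm1*, thymidylate synthase (*tyms*) and thymidine kinase (*tk1*), which makes thymidylate from salvaged thymidine. In *gemin2* mutants *tk1* had 1.33, 1.17 and 1.22 CPM, against 1.49, 2.23 and 2.51 in the shared wild types. All mutant libraries were lower, with a log2 fold change of -0.75 (SE 0.243, edgeR adjusted p = 0.126). In *gemin4* mutants *tk1* had 1.52, 0.803 and 1.08 CPM, with replicate 1 just above the lowest of the same wild types, with a log2 fold change of -0.87 (SE 0.297, edgeR adjusted p = 0.815). Log2 fold changes of *tk1* in the mutants with own siblings were -0.68 (SE 0.427) in the *smn1* family, -0.25 (SE 0.419) in the *gemin3* family and -0.62 (SE 0.404) in the *gemin5* family, with overlapping libraries. In *gemin5* mutants *tyms* had 1.78, 1.64 and 1.96 CPM, against 1.4, 1.13 and 1.42 in wild-type siblings. The groups did not overlap, with a log2 fold change of 0.45 (SE 0.196, edgeR adjusted p = 0.432).

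Of the 6 mitotic cyclins and kinases, 5 had a negative log2 fold change in *gemin4* mutants, with a median of -0.49, and 6 a positive one in *gemin7* mutants, with a median of 0.24. Both rested on single libraries: the *gemin4* median was -0.13, with 3 of 6 negative, without shared wild-type replicate 3, and the *gemin7* median was -0.04, with 3 of 6 negative, without mutant replicate 3. Medians in the other mutants were -0.04 in *smn1*, 0.04 in *gemin3*, 0.04 in *gemin5* (5 of 6 tested), 0.09 in *gemin2* and -0.09 in *gemin6* mutants. In *gemin4* mutants *ccna2*, a cyclin of S phase and early mitosis, had 2.28, 2.35 and 2.19 CPM, against 3.03, 3.03 and 5.33 in the shared wild types. All mutant libraries were lower, with a log2 fold change of -0.74 (SE 0.250, edgeR adjusted p = 0.811). The B-type cyclin *ccnb1*, which activates Cdk1 at mitotic entry, had 2.74, 3.28 and 2.5 CPM in *smn1* mutants and 1.33, 2.6 and 1.35 in wild-type siblings. Wild-type replicate 2 reached the mutant range, and the log2 fold change was 0.68 (SE 0.301, edgeR adjusted p = 0.862). The mitotic kinase *plk1* had 8.03, 6.73 and 10.4 CPM in *gemin7* mutants and 4.87, 5.38 and 8.46 in the shared wild types. Each group had its highest value in replicate 3 and the groups overlapped, with a log2 fold change of 0.41 (SE 0.244, edgeR adjusted p = 0.677), which was 0.23 without mutant replicate 3.

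The spindle, checkpoint and chromosome members mostly had negative log2 fold changes, except in *gemin7* mutants. Since members moved together between pools (above), 1 pool can set many signs at once. Counts of negative genes are therefore not counts of separate observations. In *smn1* mutants 8 of 8 had a negative log2 fold change, in *gemin3* mutants 6 of 8, in *gemin5* mutants 7 of 8 and in *gemin4* mutants 8 of 8, with medians of -0.46, -0.32, -0.38 and -0.68. Medians in the other mutants were -0.09 in *gemin2* (6 of 8 negative), -0.21 in *gemin6* (8 of 8) and 0.15 in *gemin7* (2 of 8). None of these 8 genes was called by edgeR in any mutant without a block. With each library left out in turn, the median stayed between -0.61 and -0.23 in *smn1* mutants, between -0.47 and -0.12 in *gemin3* mutants, the highest value being that without wild-type replicate 2, between -0.54 and -0.18 in *gemin5* mutants and between -0.78 and -0.41 in *gemin4* mutants. In *gemin6* mutants it was 0.05 without mutant replicate 3 and 0.02 without shared wild-type replicate 3, so that its sign rested on those pools. The sign of the median also rested on single libraries in *gemin2* mutants (-0.22 to 0.17) and in *gemin7* mutants (-0.06 to 0.43).

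In *smn1* mutants *tpx2*, which encodes a spindle assembly factor and activator of Aurora A, had 4.48, 4.16 and 3.97 CPM in mutants and 5.77, 6.85 and 5.17 in wild-type siblings. All mutant libraries were lower, with a log2 fold change of -0.50 (SE 0.151, edgeR adjusted p = 0.638). The gene *nusap1*, whose product binds and bundles spindle microtubules, had 2.86, 2.68 and 2.63 CPM in mutants and 3.31, 4.9 and 3.36 in wild types. These too did not overlap, with a log2 fold change of -0.51 (SE 0.199, edgeR adjusted p = 0.832). The marker *mki67*, which coats mitotic chromosomes, had 15.1, 16.8 and 9.68 CPM in mutants and 18.9, 24.2 and 12.9 in wild types. The groups overlapped because replicate 3 was low in both, and in each replicate number the mutant was below the wild type of that number. With the replicate number as a block *mki67* was called, with a log2 fold change of -0.42 (SE 0.0783, edgeR adjusted p = 0.0457). Of the 37 identifiers, 4 in *smn1* mutants had all libraries below the wild types (*mcm10*, *bub1*, *nusap1* and *tpx2*; 6.45% of all genes) and 2 had all above (*rpa2* and *ccnb2*; 5.56%).

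In *gemin3* mutants the smallest p-value was that of *top2a*, which encodes topoisomerase II alpha, the enzyme that untangles sister chromatids. It had 20.8, 14.4 and 14.2 CPM in mutants and 21.9, 31.9 and 19.6 in wild-type siblings. Mutant replicate 1 lay above the lowest wild type, with a log2 fold change of -0.58 (SE 0.215, edgeR adjusted p = 0.367), and without wild-type replicate 2 the log2 fold change was -0.33. The checkpoint kinase *bub1*, which holds back anaphase until chromosomes are attached, had 1.89, 1.68 and 1.38 CPM in mutants and 1.78, 3.22 and 2.08 in wild types. The groups overlapped, with a log2 fold change of -0.52 (SE 0.242, edgeR adjusted p = 0.472), and without the same wild-type library the value was -0.23. No identifier separated the groups of the *gemin3* family in either direction (8.9% of all genes were lower and 10.2% higher in all mutant libraries). The median log2 fold change of all 37 identifiers, -0.06, was 0.19 without wild-type replicate 2.

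In *gemin5* mutants *mki67* had the smallest p-value, with 12.4, 10.5 and 10.4 CPM in mutants and 15.8, 16.4 and 13.3 in wild-type siblings. All mutant libraries were lower, with a log2 fold change of -0.45 (SE 0.116, edgeR adjusted p = 0.169), and with the replicate number as a block it was past the threshold, with a log2 fold change of -0.45 (SE 0.0905, edgeR adjusted p = 0.0178). The gene *tpx2* had 4.2, 3.64 and 3 CPM in mutants and 5.36, 5.32 and 3.69 in wild types. The groups overlapped through wild-type replicate 3, with a log2 fold change of -0.40 (SE 0.194, edgeR adjusted p = 0.495).

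In *gemin4* mutants 7 of the 8 spindle, checkpoint and chromosome members were lower at an unadjusted edgeR p-value below 0.05, beside 2.68% of all genes. The exception was the spindle motor *kif11*. The count of 7 became 2 of 8 without shared wild-type replicate 3 (2.79% of all genes) and 3 without mutant replicate 2 (1.68%). It was 4 without mutant replicate 1 or 3. The gene *bub1* had 1.33, 1.31 and 1.2 CPM in mutants and 2.14, 2.11 and 2.58 in the shared wild types. The groups were well apart, with a log2 fold change of -0.82 (SE 0.197, edgeR adjusted p = 0.496). The gene *top2a* had 12, 8.65 and 9.64 CPM in mutants and 15.7, 13 and 21.3 in wild types, all lower, with a log2 fold change of -0.72 (SE 0.203, edgeR adjusted p = 0.681). The gene *cdc20*, which activates the ubiquitin ligase that starts anaphase, had 1.74, 1.96 and 1.81 CPM in mutants and 2.32, 2.74 and 3.75 in wild types, all lower, with a log2 fold change of -0.68 (SE 0.222, edgeR adjusted p = 0.805). Log2 fold changes of the others were -0.56 for *mki67*, -0.54 for *tpx2*, -0.68 for *nusap1* and -0.68 for *birc5a*, a subunit of the chromosomal passenger complex, and the libraries of these did not overlap either. Of the 37 identifiers, 11 were lower in all *gemin4* mutant libraries (5.82% of all genes tested) and 0 were higher (5.53%).

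**Figure D4:**
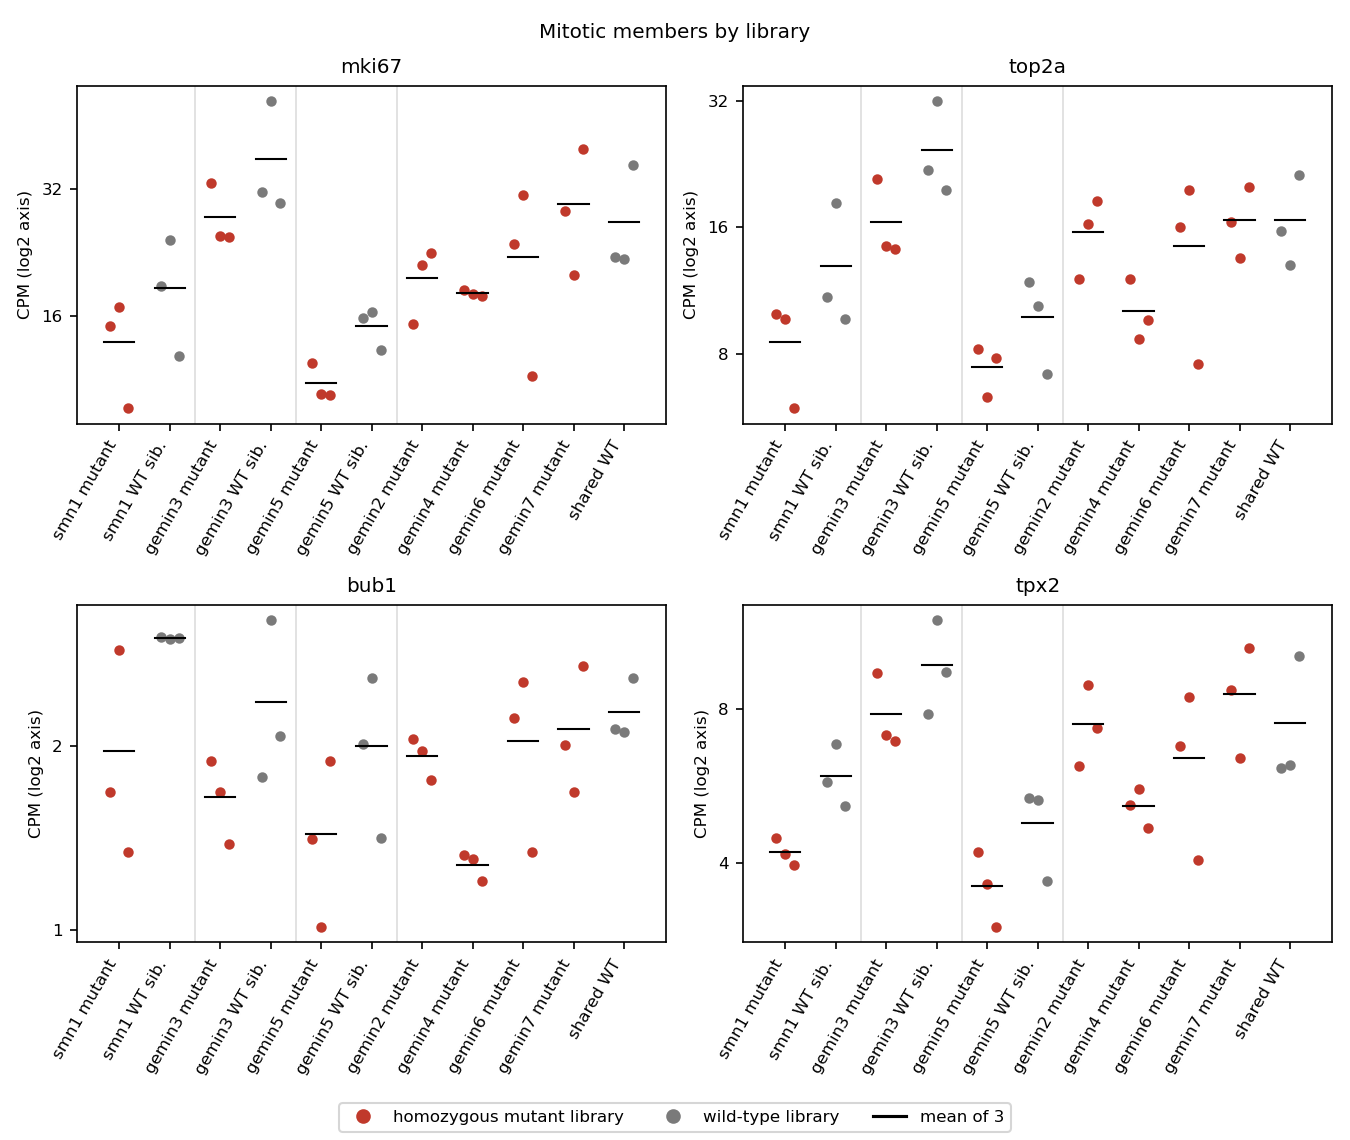
CPM (log2 axis) of *mki67*, *top2a*, *bub1* and *tpx2* in each library, mutants in red and wild types in grey, with the mean of 3 as a bar; grey lines separate the control sets. The *gemin4* mutant libraries of *bub1* lie between 1.20 and 1.33 CPM, below the shared wild types at 2.11 to 2.58 CPM, and wild-type replicate 2 of the *gemin3* family and replicate 3 of the shared wild types stand high.

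The control bears on the *gemin4* result. Shared wild-type replicate 3, the highest of the control for 33 of 37 identifiers, is labelled a *gemin7* sibling. Without it the median of the 37 identifiers in *gemin4* mutants was -0.26 in place of -0.37, with 26 in place of 33 below 0. Against the 1 wild-type library labelled as a *gemin4* sibling, the median was -0.11, with no test. Of the 8 spindle, checkpoint and chromosome members, 7 were lower in all *gemin4* mutant libraries than in every shared wild type, that sibling library included (5.82% of all genes). The exception was *kif11*, whose libraries overlapped. These are the same 6 libraries as above and the members moved together between pools, so this count is not separate support. The same control served *gemin2*, *gemin6* and *gemin7* mutants, whose medians over the 37 identifiers were -0.01, 0.01 and 0.12. Without shared wild-type replicate 3 these were 0.18, 0.19 and 0.27. In *gemin7* mutants the median was -0.11 without mutant replicate 3 and -0.29 against the 1 wild-type library labelled as a *gemin7* sibling. In *gemin6* mutants, 0 of 37 identifiers were higher in all mutant libraries (4.19% of all genes) and 1 lower (4.65%), and in *gemin7* mutants 0 were higher (6.09%) and 0 lower (7.48%).

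Further genes of the same processes were taken from lists of other replication genes (39 of 39 symbols matched), other mitosis genes (40 of 47) and regulators of the step into S phase, brakes included (39 of 50). Of the other mitosis genes, 38 of 40 had a negative log2 fold change in *smn1* mutants (median -0.42), 30 of 40 in *gemin3* mutants (-0.14), 31 of 38 in *gemin5* mutants (-0.18), 37 of 39 in *gemin4* mutants (-0.46) and 33 of 40 in *gemin6* mutants (-0.17). They were measured in the same pools as the spindle members, so these counts are not separate support for the values of those members. The share of all genes with a negative value was 47.6%, 51.2%, 49.6%, 49.9% and 50% in these mutants. In *gemin2* mutants 16 of 40 were negative (median 0.02; 50% of all genes) and in *gemin7* mutants 11 of 40 (0.14; 51.1%). The median in *gemin3* mutants was 0.06 without wild-type replicate 2, and that in *gemin6* mutants was 0.08 without mutant replicate 3. It stayed between -0.50 and -0.20 in *smn1* mutants and between -0.60 and -0.32 in *gemin4* mutants with each library left out. In *gemin4* mutants 17 of 39 were lower at an unadjusted p-value below 0.05 (2.68% of all genes), and none was called. Without shared wild-type replicate 3 there were 5 of 39, without mutant replicate 2 there were 8 of 40 and without mutant replicate 3 there were 9 of 40. The other replication genes had median log2 fold changes of 0.02, -0.04 and 0.03 in *smn1*, *gemin3* and *gemin5* mutants, and of 0.09, -0.08, 0.07 and 0.04 in *gemin2*, *gemin4*, *gemin6* and *gemin7* mutants.

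**Figure D5:**
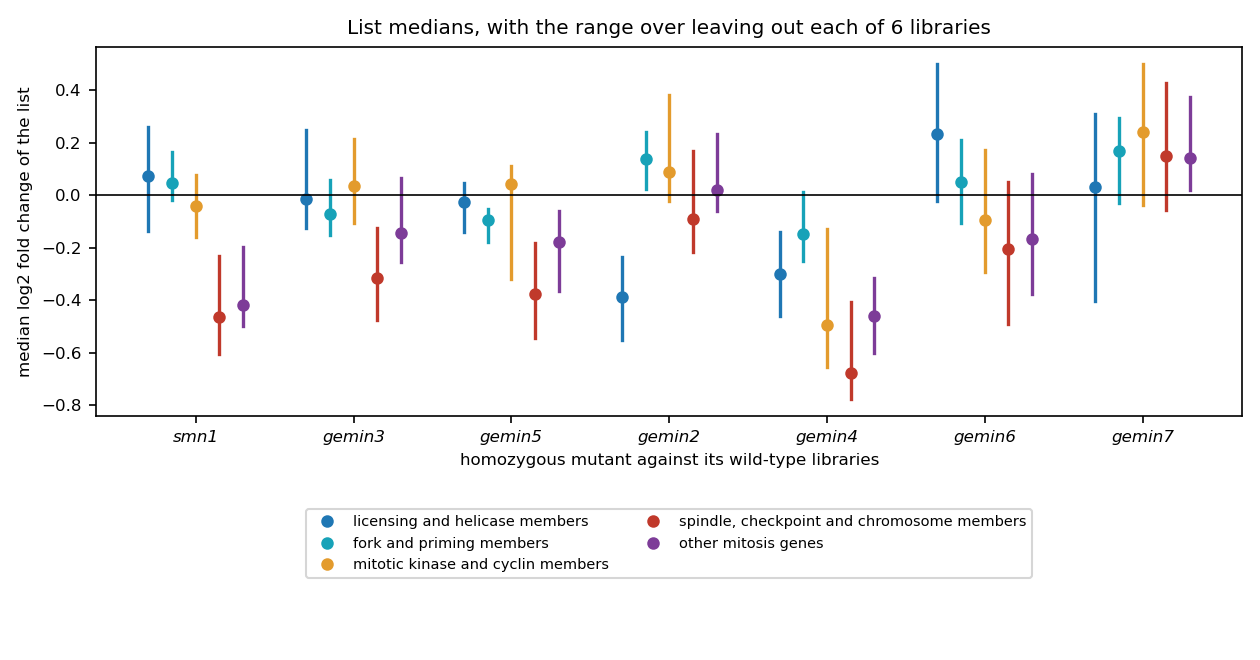
Median log2 fold change (mutant over wild type) of 5 lists in the 7 mutants; points are the medians with all 6 libraries and lines run from the lowest to the highest median when each library is left out in turn. The lines of the spindle members and the other mitosis genes stay below 0 in *smn1*, *gemin5* and *gemin4* mutants, and the line of the other mitosis genes crosses 0 in *gemin3* mutants.

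Of these longer lists, edgeR called 1 of 38 regulators of the step into S phase in *gemin3* mutants (0.978% of all genes) and 1 of 38 in *gemin5* mutants (0.907%), and in *gemin2* mutants 1 of 39 other replication genes and 1 of 40 other mitosis genes (5.39%). The shares in *gemin2* mutants were below that of all genes. In *gemin3* mutants *mdm2*, which encodes a ubiquitin ligase, rose, with 50.3, 56.5 and 54.5 CPM in mutants against 33.6, 33 and 33.7 in wild-type siblings, with a log2 fold change of 0.68 (SE 0.0729, edgeR adjusted p = 0.00651). In *gemin5* mutants *ccng1*, which encodes cyclin G1, rose, with 496, 486 and 474 CPM in mutants against 302, 273 and 285 in wild-type siblings, with a log2 fold change of 0.77 (SE 0.0683, edgeR adjusted p = 0.00532). In both cases the groups were far apart and pools of a group close together. In *gemin2* mutants *pold3*, a subunit of DNA polymerase delta, fell, with 9.55, 9.75 and 11 CPM in mutants against 18.9, 21.7 and 21.2 in the shared wild types, with a log2 fold change of -1.03 (SE 0.120, edgeR adjusted p = 0.00328). The gene *ect2*, which acts in the splitting of the cell after mitosis, rose in *gemin2* mutants, with 5.08, 5.66 and 6.36 CPM against 2.27, 2.52 and 3.11 in the shared wild types, with a log2 fold change of 1.11 (SE 0.178, edgeR adjusted p = 0.0127). These groups did not overlap either. For *pold3* and *ect2* mutation and family cannot be told apart, since *gemin2* mutants had no siblings in the data. The genes *mdm2* and *ccng1* were not called in *smn1* mutants, with log2 fold changes of 0.62 (SE 0.0829, edgeR adjusted p = 0.075) and 0.71 (SE 0.127, edgeR adjusted p = 0.196). By the same edgeR test *mdm2* was not called in *gemin5* mutants either, nor *ccng1* in *gemin3* mutants. The paper, which used DESeq2, reported a significant rise of *mdm2* in *smn1*, *gemin3* and *gemin5* mutants alike. A gene that edgeR did not call is not thereby shown to be unchanged. In each of these mutants edgeR called fewer genes than DESeq2 did here (205 against 616 in *gemin5* mutants).

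In the contrast of the study's design, the mean log2 fold change of *smn1*, *gemin3* and *gemin5* mutants minus that of *gemin2*, *gemin4*, *gemin6* and *gemin7* mutants, edgeR called 0 of 37 identifiers, beside 0.538% of all genes tested, and DESeq2 called 0. At an unadjusted p-value below 0.05 there was 1 of 37, beside 8.01% of all genes. This was the second *rrm2* identifier, at a difference of log2 fold changes of 1.21 (SE 0.575, edgeR adjusted p = 0.611), which ranged from -0.18 to 1.65 with 1 replicate number left out. The next were *orc1*, with a difference of log2 fold changes of 0.41 (SE 0.250, edgeR adjusted p = 0.756), and *rfc3*, with -0.18 (SE 0.115, edgeR adjusted p = 0.789). The median difference of the 37 identifiers was -0.07, and that of the 8 spindle members -0.18, beside 0.01 for all genes.

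The summed level of thymus and lymphoid markers was lower in all 7 mutants. Of 6 such markers 5 were matched: the recombinase genes *rag1* and *rag2*, the T cell kinases *lck* and *zap70*, and *foxn1*, a factor of thymic epithelium. Their summed level was 2.53 to 4.4 CPM in *smn1* mutants against 8.32 to 15 in wild-type siblings, 5.24 to 8.37 in *gemin3* mutants against 19.2 to 32.2, and 2.91 to 5.48 in *gemin5* mutants against 12.6 to 15. It was 6.33 to 8.68 CPM in *gemin2* mutants, 6.34 to 8.35 in *gemin4* mutants, 10.1 to 18 in *gemin6* mutants and 14.5 to 16.1 in *gemin7* mutants, against 19.3 to 26.9 in the shared wild types. No mutant library reached the range of its wild types, and none of the 5 markers was at 0 in any library. Wild-type families differed in this sum too, and the sums of *gemin6* and *gemin7* mutants overlapped those of *smn1* and *gemin5* wild types. For *gemin2* mutants, which had no siblings in the data, mutation and family cannot be told apart. The most abundant of them in wild types was *rag1*, with group medians of 7.39 to 23.1 CPM, where no other marker had a group median above 2.32 CPM. The recombinase gene *rag1* fell in *gemin3*, *gemin5*, *gemin2* and *gemin4* mutants, at log2 fold changes of -2.70, -2.18, -2.37 and -2.20 (edgeR adjusted p = 0.0191, 0.00359, 0.00126 and 0.0123). The other calls were *rag2* and *lck* in *gemin3* mutants, *zap70* in *gemin5* mutants, and *lck* and *zap70* in *gemin2* mutants, all lower. The gene *foxn1* was called in no mutant, with log2 fold changes between -0.37 and 0.27. The thymus of a larva is rich in dividing cells, and the part of these cells in the values of the members was not tested.

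The erythroid markers, which are the globins *hbae1.1* and *hbbe1.1*, the haem enzyme *alas2* and the factor *gata1a*, had negative log2 fold changes for 4 of 4 in *smn1* mutants (median -0.45), *gemin5* mutants (-0.51), *gemin2* mutants (-0.49) and *gemin7* mutants (-0.29), and positive ones for 4 of 4 in *gemin6* mutants (0.59). In *gemin3* and *gemin4* mutants 2 of 4 were negative, with medians of 0.01 and 0.05. Of all genes, 47.6% to 51.2% had a negative value in the 7 mutants. None of the erythroid markers was called. Their summed level was 190.2 to 292 CPM in *smn1* mutants against 297 to 455 in wild-type siblings, without overlap, and 113 to 247 CPM in *gemin5* mutants against 96.9 to 391, overlapping. Larval erythroid cells include dividing precursors, and their part in the values of the members was not tested. Over all lists of cell types other than thymus, medians lay between -0.58 and 0.95 in the 7 mutants. Of their markers, edgeR called *cp* (liver, 0.74) and *cela1.3* (pancreas, -0.88) in *gemin3* mutants and *cp* (1.14) in *gemin5* mutants. In *gemin2* mutants it called *cp* (-1.94), *tfa* (liver, -0.67), *apoa4a* (intestine, -1.93), *nes* (neural progenitor, -0.91), *col15a1b* (retinal margin, 0.63), and *dazl* and *piwil1* (germ cell, 1.56 and 1.00), all values being log2 fold changes. Of all genes, 5.39% were called in *gemin2* mutants, which had no siblings in the data, so mutation and family cannot be told apart. The *gemin2* germ cell sum, 12.4 to 17 CPM, was above the shared wild types (6.21 to 10.4) but overlapped *smn1* wild types (12.3 to 17.5). The liver list as a whole had a median of 0.15 in *gemin3* mutants, where its marker *ttr* had -0.55 (SE 0.141, edgeR adjusted p = 0.179), of 0.37 in *gemin5* mutants and of -0.12 in *gemin2* mutants.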

How the data were processed

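RNA of 33 libraries in 11 groups of 3 was sequenced in paired ends. The authors used STAR on GRCz10 with an Ensembl release 91 annotation without pseudogenes, and RSEM gave the deposited expected counts per gene, the TPM values corrected for length, and a posterior SD of each count. The submitters' processing notes also name Trimmomatic 0.36, STAR 2.5.4a and HISAT2 2.2.1.0. Small RNA libraries were not used. Symbols were matched for 26982 of 34707 identifiers through the gene table and for 414 through supplementary tables, and 7311 stayed unnamed.

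Expected counts were rounded to whole numbers. Mutants were compared with their control, 6 libraries at a time, in R 4.3.3 with edgeR 4.0.16 (filterByExpr, TMM, quasi-likelihood test), and p-values were adjusted by Benjamini-Hochberg over all genes tested, with a threshold of 0.05. SEs were obtained from the log2 fold change and the F statistic (fold change over root F). CPM values are TMM-normalized, TPM served only to compare genes, and all 37 identifiers passed the filter except *ccnb2* in the *gemin5* comparison. Regeneration and non-regeneration mutants were contrasted in 1 fit of all libraries. The model was tested on simulated data. No pair of libraries of a group was a copy (lowest chi-square per degree of freedom 10.2).

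The members and lists were chosen with earlier results of these data known. Libraries are given for called members and for the 3 members with the smallest p-value in each comparison, and for others chosen after their values were seen. Alternatives were DESeq2 1.42.0, RLE normalization, no filter, all libraries in 1 fit, 1 library left out, a single sibling library as control, and the replicate number as a block. Deviations of same-numbered pools correlated at 0.50 to 0.70 in the *smn1* family, 0.15 to 0.40 in the *gemin3* family and 0.31 to 0.64 in the *gemin5* family, and were taken as paired there. This pairing was inferred from these data and is not in the labels. Summing of both *rrm2* identifiers was added after the data were seen.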

Additional observations from a re-analysis of the deposited data

Results flagged for a closer look

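The cyclin *ccnb2* was higher in all libraries in 1 mutant and lower in all libraries in another. It had 0.314, 0.410 and 0.366 CPM in *smn1* mutants and 0.290, 0.187 and 0.271 CPM in their wild-type siblings, with a log2 fold change of 0.54 (SE 0.357, edgeR adjusted p = 0.941). It had 0.325, 0.238 and 0.349 CPM in *gemin4* mutants and 0.406, 0.436 and 0.645 CPM in the shared wild types, with a log2 fold change of -0.71 (SE 0.342, edgeR adjusted p = 0.868). The difference between the fold changes was 1.25 on the log2 scale (SE 0.486) with an edgeR adjusted p of 0.920, and was found among 37 identifiers and 7 mutants. The gene is among the least abundant members, at a median of 0.41 TPM in wild types.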

How the results depend on the processing

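Counts of called members started from 0 in all comparisons except that of *gemin2* mutants, so that most of them could not fall, and they say little about stability. Of 277 values of single members 265 kept their direction and side of the threshold. Most of these members were not past the threshold at first, and they were picked for small p-values in the same data. This tally therefore also says little about stability. In the fit with a replicate block, the count was 1 in *smn1* mutants and 4 in *gemin5* mutants in place of 0, and no other call changed in the families that were paired. In *gemin2* mutants, whose numbers were not paired with the control, the block and DESeq2 each called 3 in place of 2, adding the first *rrm2* identifier at 1.53 and 1.38. Leaving out 1 library gave 0 to 3 calls there: 0 without mutant replicate 2 and 3 without shared wild-type replicate 1 (adding *mcm5*) or 2 (adding *rrm2* at 2.00). With the *rrm2* identifiers summed, 1 call was left in *gemin2* mutants, and the log2 fold change of *rrm2* was reversed, to -0.093 in *gemin2* mutants and to -0.28 in *gemin6* mutants. In the contrast of regeneration mutants the second *rrm2* identifier ranged from -0.18 to 1.65 when 1 replicate number was left out. The *gemin4* median was -0.11 against its single sibling library. Counts over all genes moved more: DESeq2 called 181 in *smn1*, 746 in *gemin3*, 616 in *gemin5*, 2133 in *gemin2*, 96 in *gemin4*, 24 in *gemin6* and 61 in *gemin7* mutants, where edgeR called 21, 237, 205, 1249, 4, 0 and 0. The block gave 350, 480 and 1700 in *smn1*, *gemin3* and *gemin5* mutants, and edgeR without *gemin2* mutant replicate 2 gave 324.

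With 3 pools a group, the median SE of a member was 0.19 to 0.32 on the log2 scale. Members averaging under 1 CPM numbered 3. A few high or low pools and the shared control limit the medians of lists, and the causes were not tested.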
